A study of Mus musculus with 58 samples.

Results

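Potassium channel genes were followed in the somatosensory cortex of mice weeks after repeated mild head injury. They were chosen by name, as the genes of the count table whose symbol begins with Kcn, with the antisense transcript Kcnq1ot1 left out. The rule uses no measured value. It gave 46 of the 9636 listed genes. RefSeq names 94 protein-coding genes of this kind in the mouse, and the other 48 are not among the listed genes. Of the 46, 38 encode pore-forming subunits, 22 of them in the voltage-gated channels, and 8 encode auxiliary subunits.

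Potassium channels let potassium leave the cell and so set the resting potential, end the action potential and limit how often a neuron fires. Kv channels open on depolarisation, Kir channels pass current best near rest, K2P channels carry the leak, and a further group opens on calcium or sodium. In cortex, Kv1 subunits sit along axons, Kv2 and Kv4 on cell bodies and dendrites, and Kv3 in fast-spiking interneurons, while Kcnj10 serves astrocytes in clearing potassium from the space around neurons.

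All mice were of the C57BL/6J strain and were 2 to 4 months old at the start. The libraries comprised 19 from mice with 5 once-daily closed head injuries and the p38 MAPK inhibitor SB239063 (5xCHI + SB) and 20 from injured mice given saline (5xCHI + vehicle). A further 5 came from uninjured mice given the inhibitor (sham + SB) and 14 from uninjured mice given saline (sham + vehicle). SB was injected intraperitoneally at 20 mg/kg, 30 min after each of the 5 procedures. The 35 female and 23 male libraries came from 4 cohorts per sex, F1 to F4 and M1 to M4, and sham + SB libraries stood in 4 of the 8 cohorts. Tissue was taken around 18 or 34 days after the last procedure, per the design text. The labels do not give the day of each animal, so day and cohort cannot be told apart.

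Each of the 58 libraries held 28316280 to 49158277 counts over the listed genes. The table lists abundant genes only, with no count below 101, so no marker gene in it stood at 0. The labelled tissue showed its markers: 8 of 8 excitatory neuron markers, 7 of 7 upper layer markers and 8 of 9 deep layer markers were listed. The excitatory markers summed to between 3573 and 6884 library-scaled counts (CPM) in a library, and the 6 listed of 10 markers of the neighbouring striatum summed to between 293.5 and 1665 CPM. On the first 4 principal components, 6 libraries stood more than 3 scaled median absolute deviations from the median. These were 5xCHI + SB females 8 and 10, 5xCHI + vehicle female 1, sham + vehicle females 1 and 7 and sham + vehicle male 2. Cohort accounted for 57.1% and group, beyond cohort, for 5.97% of the first component, which carried 27.5% of the variance.

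Promoter windows of 3 members are shown because Kcnh4 led the comparison of SB with vehicle and Kcnh1 and Kcnc1 were among the leading genes of the cohort comparison. Each window runs from 250 bases before to 50 bases after the gene's start in RefSeq on GRCm38.p6, 5′ to 3′ on the gene's strand. Capitals mark 3 short motifs on either strand. The first is the GC box, which was searched as the letters GGGCGG. The next is the core of the cAMP response element, which was searched as TGACG wherever it stood in the window. The last is the TATA box, for which the exact letters TATAAA were required.
Kcnh4, chr11:100759729-100760028, minus strand: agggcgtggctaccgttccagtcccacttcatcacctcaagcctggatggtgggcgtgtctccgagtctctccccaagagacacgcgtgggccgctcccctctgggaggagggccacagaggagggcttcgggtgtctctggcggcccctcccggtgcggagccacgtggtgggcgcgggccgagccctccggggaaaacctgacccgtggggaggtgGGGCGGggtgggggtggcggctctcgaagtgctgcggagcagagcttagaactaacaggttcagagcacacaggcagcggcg
Kcnh1, chr1:192190527-192190826, plus strand: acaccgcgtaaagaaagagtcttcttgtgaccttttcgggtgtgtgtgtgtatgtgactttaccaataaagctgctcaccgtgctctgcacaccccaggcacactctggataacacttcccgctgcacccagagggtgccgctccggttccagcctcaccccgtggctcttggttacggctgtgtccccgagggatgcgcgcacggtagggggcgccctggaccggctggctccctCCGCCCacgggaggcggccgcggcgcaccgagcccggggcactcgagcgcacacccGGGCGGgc
Kcnc1, chr7:46396218-46396517, plus strand: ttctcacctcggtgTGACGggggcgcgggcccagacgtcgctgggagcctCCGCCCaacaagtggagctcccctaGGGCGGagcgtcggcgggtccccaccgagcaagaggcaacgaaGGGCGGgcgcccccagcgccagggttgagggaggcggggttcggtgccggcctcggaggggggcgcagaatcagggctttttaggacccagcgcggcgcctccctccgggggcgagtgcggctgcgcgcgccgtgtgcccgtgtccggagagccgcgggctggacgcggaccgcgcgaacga
The windows are rich in G and C, with 68.7% in Kcnh4, 66.0% in Kcnh1 and 74.7% in Kcnc1, against a median of 52.7% over 32851 mouse windows. Kcnh4 holds 1 GC box, Kcnh1 holds 2 and Kcnc1 holds 3. Kcnc1 also holds 1 cAMP response core, and none of these 3 windows holds the TATA box letters. Of all windows, 35.7% had a GC box, 20.8% a cAMP response core and 13.6% a TATA box on either strand, and none of the motifs overlap each other in the printed windows. The table holds 52 windows of 32 members, of which 25 had a GC box, 7 a cAMP response core and 3 a TATA box.

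Among the listed genes, which are abundant ones only, the members had a median level of 24.8 CPM per kb of exon, against 14.0 over all listed genes. Kcnab2, the beta subunit that escorts Kv1 channels, was highest at 139 ± 16.9 CPM per kb (SD, n = 58). Kcnj9, a G protein-gated rectifier that answers inhibitory transmitters, ranked 2 of 46 at 66.5 ± 6.62 CPM per kb. Kcnh3, an Elk channel of forebrain neurons, ranked 4 at 54.6 ± 7.10 CPM per kb, and Kcnj4, a strong inward rectifier, ranked 5 at 52.0 ± 8.07. The difference between Kcnh3 and Kcnj4 was smaller than their spread over libraries.

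Levels also differed within families. Among Kv1 genes, Kcna2 stood at 45.5 CPM per kb, Kcna1 at 22.9 and Kcna6 at 21.8. Kcnb2, a slow delayed rectifier, had the lowest level of all members at 3.01 CPM per kb. Among Kv3 genes, Kcnc1 stood at 28.0, Kcnc4 at 27.2 and Kcnc2 at 20.7 CPM per kb. Kcnd2, the A-type channel of dendrites, led the Kv4 pair at 24.8 CPM per kb, and Kcnf1, a subunit that forms no channel alone but modifies Kv2, led the silent subunits at 35.6.

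Outside the voltage-gated group, Kcnk1 led the leak channels at 43.3 ± 4.46 CPM per kb, and Kcnma1, the large-conductance channel opened by calcium and voltage, led the ion-activated channels at 36.5 ± 3.35 (SD, n = 58 each). The astrocyte rectifier Kcnj10 stood at 45.9 ± 8.19 CPM per kb and its partner Kcnj16 at 8.06 ± 1.19. Kcnh4, the second Elk channel, ranked 44 of 46 at 6.723 ± 1.504 CPM per kb.

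**Figure D1:**
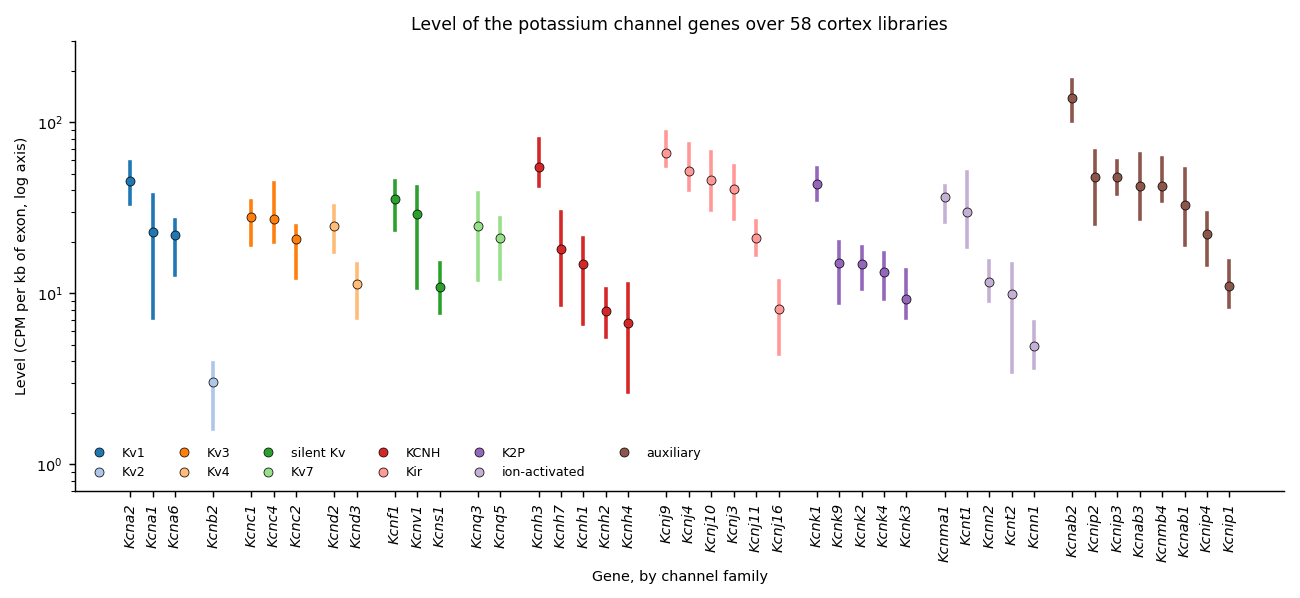
Mean level of 43 of the potassium channel genes over 58 libraries, in CPM per kb of exon on a log axis, with a line from the lowest to the highest library and a colour for each family. Kcnab2 is highest at 139 and Kcnb2 lowest at 3.01 CPM per kb, and Kcna1 has one of the longest lines, from 7.18 to 37.5.

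Members differed in how much they varied between libraries once group and cohort were taken out. The residual SD of log2 CPM had a median of 0.18 over the members and 0.16 over all genes. Kcna1 varied most at 0.41, followed by the silent subunit gene Kcnv1 and by Kcnip2, a calcium sensor bound to Kv4 channels, at 0.30 and 0.29. Kcnk1 varied least at 0.094.

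The first question of the design was whether SB changed transcripts in injured mice. No member passed at an adjusted p under 0.05 by edgeR's quasi-likelihood test with Benjamini-Hochberg adjustment, and the background was 0% of 9636 genes. At an unadjusted p under 0.05 there were 9 of 46 members, against 7.06% of all genes. Of these, 7 were higher with SB (background 3.41%) and 2 lower (background 3.64%). The median log2 fold change was 0.054 over the members and 0.0034 over all genes, and 33 of 46 members were higher in 5xCHI + SB mice, against 52.2% of all genes. The interval of every member lay within 1.5-fold in both directions.

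All 5 KCNH genes were higher with SB, by 0.13 to 0.28 (log2, median 0.15), though none passed. Kcnh4 led the members. It stood at 19.0 to 44.6 CPM (median 28.6, n = 19) in 5xCHI + SB mice, against 16.1 to 29.8 CPM (median 24.3, n = 20) in 5xCHI + vehicle mice. The groups overlapped over most of the vehicle range, and the highest values belonged to SB mice. The log2 fold change was 0.28 ± 0.079 (SE), and edgeR gave p = 7.716e-04 before and 0.655 after adjustment. Within cohorts Kcnh4 was higher with SB in 7 of 8, with differences between -0.012 in F1 and 0.76 in F4. Cohort F4 held a single 5xCHI + SB library, female 8, which stood apart. Without the 6 libraries that stood apart the log2 fold change of Kcnh4 was 0.22.

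Sham mice gave the level of Kcnh4 without injury. It was 15.6, 27.8 and 30.8 CPM in sham + SB females and 22.7 and 23.7 CPM in sham + SB males, against 10.5 to 38.8 CPM (median 26.7, n = 14) in sham + vehicle mice. The sham + SB values lay inside the sham + vehicle range, and within the 4 cohorts that hold both, Kcnh4 was higher with SB in 4 of 4, by 0.048 to 0.58 on the log2 scale. In F2, M1 and M2 these differences compare a single library on each side. The 0.58 of F2 was taken against sham + vehicle female 1, which stood apart. The effect of SB was 0.28 ± 0.16 larger in injured than in sham mice on the log2 scale, which did not pass (edgeR, p = 0.0884 before and 0.999 after adjustment).

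The other leading KCNH genes had smaller differences. Kcnh3 had 163 to 293 CPM (median 208) in 5xCHI + SB mice, against 170.3 to 233 CPM (median 188) in 5xCHI + vehicle mice, a log2 fold change of 0.13 ± 0.053. Kcnh2, an Erg channel, had 32.3 to 46.4 CPM (median 37.5) in 5xCHI + SB mice, against 25.6 to 46.8 CPM (median 33.5) in 5xCHI + vehicle mice, a log2 fold change of 0.14 ± 0.058. For both genes the ranges overlapped. For Kcnh2, 9 of the 20 vehicle libraries lay below the lowest SB library, and for Kcnh3, 2 SB libraries lay above the highest vehicle library. Without the libraries that stood apart, Kcnh3 was at 0.075.

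Kcnc1, the Kv3 channel that lets fast-spiking interneurons repolarise quickly, was also among the leading members. It had 200.1 to 323 CPM (median 285) in 5xCHI + SB mice, against 188 to 302 CPM (median 253) in 5xCHI + vehicle mice. The log2 fold change was 0.11 ± 0.044, and the difference was above 0 in 7 of 8 cohorts. Kcna1 was at 31.7 to 165 CPM (median 110.4) in 5xCHI + SB mice, against 40.2 to 132 CPM (median 93.3) in 5xCHI + vehicle mice, and its log2 fold change of 0.14 ± 0.12 was close to its SE.

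Kcnh1, an ether-a-go-go channel named here after its value was seen, was another of the 7 higher members. It had 80.6 to 153 CPM (median 114) in 5xCHI + SB mice, against 51.1 to 131 CPM (median 106) in 5xCHI + vehicle mice, a log2 fold change of 0.15 ± 0.072. It was higher with SB in 8 of 8 cohorts, with overlapping ranges.

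Lower values with SB were led by a small-conductance calcium-activated channel and a Kv1 subunit. Kcnn1, which shapes the pause after a spike, had 18.8 to 24.7 CPM (median 21.1) in 5xCHI + SB mice, against 16.7 to 31.2 CPM (median 23.4) in 5xCHI + vehicle mice, a log2 fold change of -0.11 ± 0.049. Kcna6 had 87.3 to 145 CPM (median 127) in 5xCHI + SB mice, against 105 to 149 CPM (median 133) in 5xCHI + vehicle mice, a log2 fold change of -0.12 ± 0.058. The calcium sensors of Kv4 channels Kcnip4 and Kcnip3 were at -0.075 ± 0.053 and -0.052 ± 0.046. None of these 4 passed, and each was lower with SB in 5 or more of 8 cohorts.

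Markers of other cells moved in the same comparison. All 13 oligodendrocyte and myelin markers were lower with SB, each with an unadjusted p under 0.05 and none called, with a median log2 fold change of -0.35 and sums of 2596 to 9036 CPM in 5xCHI + SB mice, against 5428 to 12890 CPM in 5xCHI + vehicle mice. All 7 upper layer markers were higher, with a median of 0.16 and sums of 827 to 1525 CPM in 5xCHI + SB mice, against 826 to 1192 CPM in 5xCHI + vehicle mice. All 6 striatal markers were higher, with a median of 0.26. Their sums were 342 to 1665 CPM (median 394) in 5xCHI + SB mice, against 314 to 778 CPM (median 380) in 5xCHI + vehicle mice. The sum of 1665 CPM belonged to a male library of cohort M2. The part of these marker lists in the members' differences was not tested. In such bulk tissue, fewer cells of a type and less RNA per cell cannot be told apart.

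**Figure D2:**
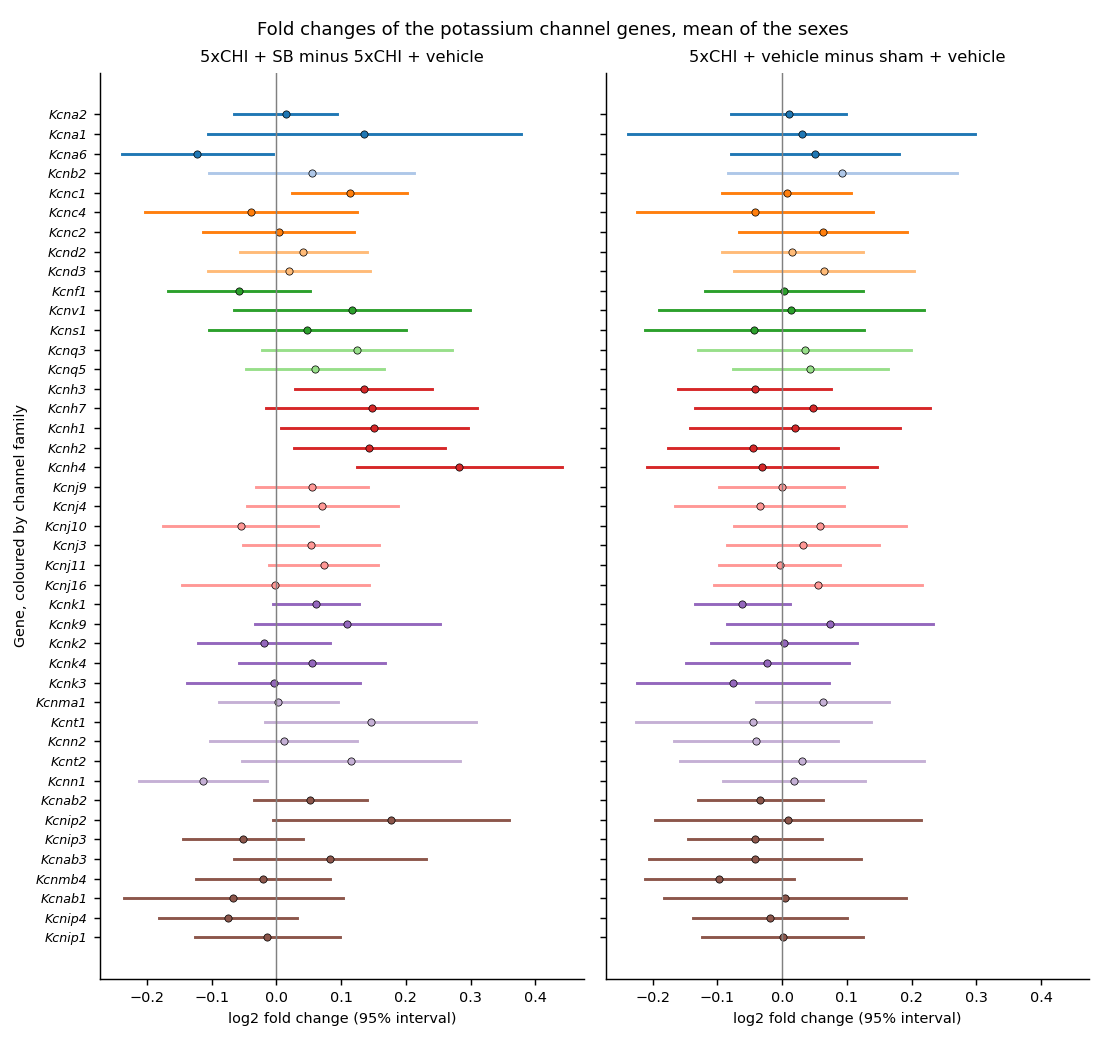
Log2 fold change of 43 members with the 95% interval, for 5xCHI + SB minus 5xCHI + vehicle (left) and 5xCHI + vehicle minus sham + vehicle (right), as the mean of the female and male difference, coloured by family. The 5 KCNH genes lie right of 0 in the left panel, led by Kcnh4 at 0.28, and no interval in the right panel leaves 0 out.

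The count of 9 depended on the model. It was 10 with DESeq2, 17 with limma voom and quality weights and 3 without the cohort term, and it was 5 without 5xCHI + vehicle male 4. No member passed at an adjusted p under 0.05 in any of them. Over all 9636 genes, 1407 had an unadjusted p under 0.05 with limma voom and 396 without the cohort term, against 680 in the main fit.

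Injury alone was tested in vehicle mice. Between 5xCHI + vehicle and sham + vehicle mice no member passed by edgeR (background 0%), and 0 of 46 had an unadjusted p under 0.05, against 1.75% of all genes. DESeq2 gave 0 members at either threshold, and limma voom gave 0 adjusted and 2 unadjusted. The median log2 fold change was 0.0071, with 28 members higher, and the fold changes ran from -0.097 to 0.093. The median was -0.030 without sham + vehicle male 4. All 46 intervals lay within 1.5-fold, so that a larger mean difference was outside the 95% interval of each member.

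The members nearest to a difference were of different kinds. Kcnma1 had 398 to 546 CPM (median 488, n = 20) in 5xCHI + vehicle mice, against 337 to 544 CPM (median 481, n = 14) in sham + vehicle mice, a log2 fold change of 0.063 ± 0.051. Kcnmb4, the beta subunit of the same channel in neurons, had 47.2 to 70.2 CPM (median 55.9) in 5xCHI + vehicle mice, against 47.1 to 84.2 CPM (median 59.3) in sham + vehicle mice, a log2 fold change of -0.097 ± 0.057. Both ranges overlapped, with 2 sham libraries of Kcnma1 below the lowest injured one and 2 sham libraries of Kcnmb4 above the highest injured one.

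Among the leak channels, Kcnk1 was at -0.061 ± 0.037, the acid-sensitive Kcnk3 at -0.075 ± 0.074 and the acid-sensitive Kcnk9 at 0.074 ± 0.079 (log2). Kcnb2 was at 0.093 ± 0.088, the fast-spiking channel gene Kcnc2 at 0.063 ± 0.065 and Kcnip3 at -0.042 ± 0.052. Kcnh4 was at -0.031 ± 0.088 and Kcna1 at 0.030 ± 0.13. Without the libraries that stood apart, Kcna1, Kcnb2, Kcnc2, Kcnk9 and Kcnk3 turned sign, and Kcna1 also turned without 5xCHI + vehicle male 2 or 7, sham + vehicle female 7 or sham + vehicle male 2 or 4.

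Injured mice given SB were also set against sham + vehicle mice. This comparison shares its samples with both comparisons above. No member passed (background 0%), with 8 of 46 at an unadjusted p under 0.05, against 12.6% of all genes. Of these, 7 were higher (background 5.64%) and 1 lower (background 6.93%). The median was 0.062 with 33 members higher, and it was 0.040 without sham + vehicle male 4. Kcnh4 had the smallest p at 0.25 ± 0.089 (edgeR, p = 0.00683 before and 0.347 after adjustment), and Kcnmb4 led the lower ones at -0.12 ± 0.058. The count of 8 rested on single libraries. It was 1 without sham + vehicle male 4, 3 without sham + vehicle female 1, 5 without 5xCHI + SB females 5, 8 or 11 or 5xCHI + SB male 4 in turn, and 13 without sham + vehicle female 5.

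SB without injury was tested on 5 sham + SB libraries. No member passed (background 0%), and 1 had an unadjusted p under 0.05, against 7.02% of all genes. The count of 1 changed in 26 of the 58 fits without a single library, to 0 without sham + SB male 2 or sham + vehicle male 4 and to 5 without sham + vehicle male 5. Kcna1, which was not the member under 0.05, had 80.8, 127 and 157 CPM in sham + SB females and 141 and 157 CPM in sham + SB males, against 38.4 to 166 CPM (median 95.7, n = 14) in sham + vehicle mice, with overlapping ranges and a log2 fold change of 0.38 ± 0.21. The sham + vehicle libraries also came from F3, F4, M3 and M4, which hold no sham + SB library. Within the 4 cohorts that hold both, the difference of Kcna1 ran from -0.18 in F1 to 1.68 in M1, and was above 0 in 3. The M1 value compares a single library on each side.

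In sham mice 39 of 46 members were higher with SB, with a median log2 fold change of 0.077, against 47.1% of all genes. Transcript length ran along with this comparison: over all genes, which are not independent replicates, length and fold change had a Spearman correlation of 0.55. The members are longer than most, with a median of 4.50 kb of exon, against 3.69 kb over all genes. Without sham + vehicle male 4 the members' median was 0.048. With a length offset in the model it was 0.054. In injured mice the same correlation was 0.36, and the members' median for SB was 0.047 with the offset. The correlation was 0.51 for injury in vehicle mice and 0.60 for injured SB against sham vehicle.

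No member passed for a response to SB that differed with injury (0 adjusted, 0 unadjusted, backgrounds 0% and 1.38%, edgeR). DESeq2 also gave 0 at both thresholds, and limma voom 0 adjusted and 1 unadjusted. The member with the smallest p among the negative estimates was Kcnj10, at -0.21 ± 0.12, and at -0.12 without sham + SB male 2. The unadjusted count was 0 to 2 over the 58 fits without a single library.

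**Figure D3:**
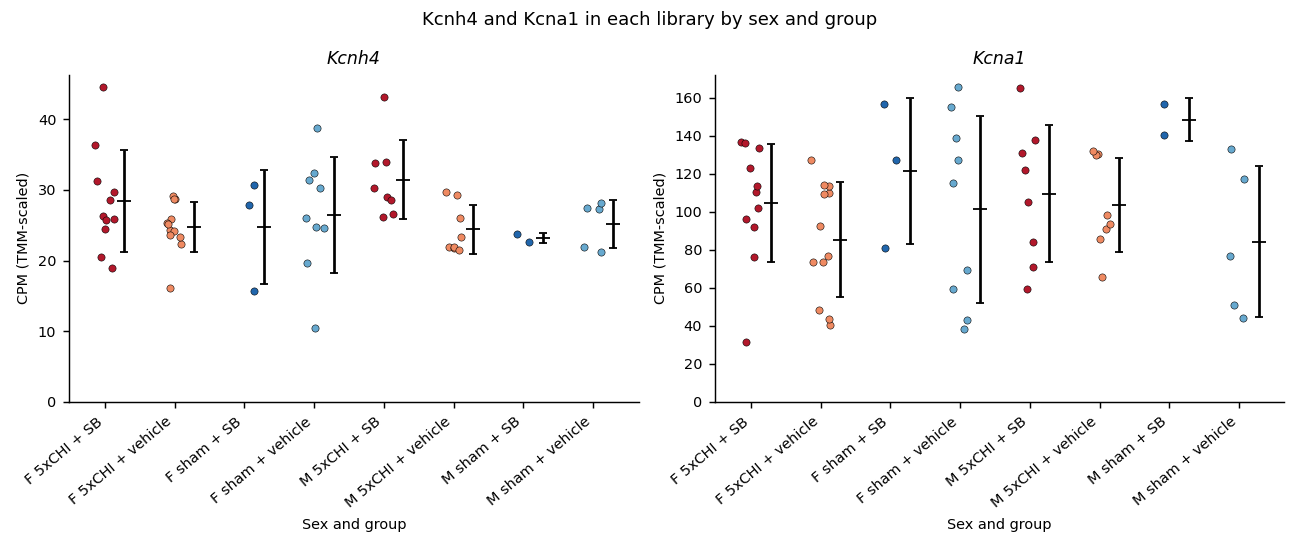
CPM of Kcnh4 (left) and Kcna1 (right) in each of the 58 libraries by sex and group, with the mean and SD of each group as a black bar. The 8 male 5xCHI + SB libraries have 26.2 to 43.2 CPM of Kcnh4, and Kcna1 runs from 31.7 to 166 CPM over all libraries.

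The sexes were tested apart and against each other. In injured males, SB was set against vehicle and Kcnh4 had 26.2 to 43.2 CPM (median 29.6, n = 8) in 5xCHI + SB males, against 21.5 to 29.8 CPM (median 22.6, n = 8) in 5xCHI + vehicle males, with a log2 fold change of 0.37 ± 0.12. In females it had 19.0 to 44.6 CPM (median 26.4, n = 11) in 5xCHI + SB mice, against 16.1 to 29.2 CPM (median 24.8, n = 12) in 5xCHI + vehicle mice, with a log2 fold change of 0.20 ± 0.10. The difference between the sexes was 0.17 ± 0.16 and did not pass. Striatal markers were higher with SB in 6 of 6 in males (median 0.52) and in 4 of 6 in females (median 0.030), with 6 of 6 higher in the sex difference (median 0.46) and none called. The highest striatal sum, 1665 CPM, belonged to a 5xCHI + SB male library of cohort M2, where the median sum was 464 CPM. The part of the striatal markers in the Kcnh4 values was not tested.

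No member passed for SB in either sex (backgrounds 0%). At an unadjusted p under 0.05 there were 6 of 46 in females (7.21% of all genes) and 2 in males (1.88%). Kcnc1 at 0.14 ± 0.057 and Kcnip4 at -0.14 ± 0.068 led in females, and Kcnh4 and Kcna6, at -0.18 ± 0.089, in males. The female count was 1 without 5xCHI + SB female 8 and 3 without 5xCHI + SB female 5 or 10 or 5xCHI + vehicle female 6, and 1 with a length offset. The male count was 1 without 5xCHI + SB male 2, 6 or 8 or 5xCHI + vehicle male 3, 4 or 5 in turn, and 4 without 5xCHI + vehicle male 8. For the sex difference of the SB effect, 0 members passed by edgeR and 0 had an unadjusted p under 0.05 (backgrounds 0% and 0.913%), with 0 and 0 by DESeq2 and 0 and 2 by limma voom. Its leaders were Kcnip4 at 0.12 ± 0.11 and Kcnf1 at -0.18 ± 0.11, as male minus female.

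The injury effect had opposite signs by sex for Kcnab3, a beta subunit of Kv1 channels. In females it had 69.0 to 111 CPM (median 92.7, n = 12) in 5xCHI + vehicle mice, against 88.8 to 146 CPM (median 123, n = 9) in sham + vehicle mice. In males it had 73.4 to 165 CPM (median 113, n = 8) in 5xCHI + vehicle mice, against 83.5, 94.4, 96.9, 101.3 and 109 CPM in sham + vehicle mice. All 12 injured females lay below the sham median, whereas injured males reached past both ends of the sham range.

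The log2 fold change of Kcnab3 was -0.33 ± 0.099 in females and 0.24 ± 0.13 in males. The difference, male minus female, was 0.57 ± 0.16 (edgeR, p = 0.00105 before and 0.786 after adjustment). No member passed for this difference (background 0%), and 7 had an unadjusted p under 0.05, against 6.13% of all genes. The other 6 were Kcna1 at 0.59 ± 0.27, Kcnj10 at 0.34 ± 0.13, Kcnj3 at 0.24 ± 0.12, Kcna2 at 0.23 ± 0.089, Kcnj4, a strong inward rectifier, at -0.28 ± 0.13, and Kcnf1 at -0.25 ± 0.12. All 13 myelin markers were higher in this difference (median 0.44), with 13 of 13 lower with injury in females (median -0.15) and 13 of 13 higher in males (median 0.28), none called, and their part in it was not tested. The count was 15 without sham + vehicle female 1 and 2 without sham + vehicle male 2. It was 3 or 4 without 5xCHI + vehicle female 3 or 6, 5xCHI + vehicle male 2 or 7 or sham + vehicle female 6, and 15 without all 6 libraries that stood apart. Without those 6 libraries 1476 of 9636 genes had an unadjusted p under 0.05, against 591 in the main fit.

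Within each sex no member passed for injury (backgrounds 0%), with 1 of 46 in females and 2 in males at an unadjusted p under 0.05, against 3.14% and 3.55% of all genes. The female one was Kcnab3, and Kcnd3, an A-type channel, led the higher ones at 0.15 ± 0.085. The male ones were Kcnj10 and Kcnmb4. Kcnj10 had 209 to 311 CPM (median 246, n = 8) in 5xCHI + vehicle males, against 178, 179.8, 224, 235 and 256 CPM in sham + vehicle males, a log2 fold change of 0.23 ± 0.11. Kcnmb4 had 49.7 to 64.9 CPM (median 55.9) in 5xCHI + vehicle males, against 57.5, 59.4, 60.7, 65.6 and 84.2 CPM in sham + vehicle males, a log2 fold change of -0.20 ± 0.091. The value of 84.2 CPM came from male 2, which stood apart, and without the 6 such libraries Kcnmb4 was at -0.10 and Kcnj10 at 0.16. The male count was 0 without 5xCHI + vehicle male 2 or 7, and 4 without sham + vehicle male 1 or 5. The female count was 8 without sham + vehicle female 1 and 4 without sham + vehicle female 7. It was 12 without the 6 libraries, where 1426 of 9636 genes had an unadjusted p under 0.05, against 303 in the main fit.

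The cohorts were compared with all groups in the model. With group held fixed, 25 of 46 members differed between cohorts of a sex at an adjusted p under 0.05 (edgeR, joint test of 6 coefficients), which is 54.3% and stands beside a background of 44.6% of all genes. By family, 5 of 6 Kir, 4 of 5 KCNH, 3 of 3 Kv1, 3 of 8 auxiliary, 2 of 5 K2P, 1 of 2 Kv4 and 1 of 3 silent subunit genes passed. The 5 ion-activated channels did not, with unadjusted p of 0.0657 to 0.340 (edgeR).

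Kcnh1 had the smallest p. It had 51.1, 59.9, 69.8, 78.8 and 80.6 CPM in cohort F4, against 114 to 153 CPM (median 124, n = 10) in F1, and these cohorts did not overlap. Cohort F2 had 47.6 to 100.6 CPM (median 87.5, n = 6) and was also below F1 throughout. In males, M4 had 74.8, 80.8, 81.1, 83.8 and 89.1 CPM, against 68.0 to 145 CPM (median 118, n = 6) in M1. The fitted difference was -0.93 for F4 minus F1 and -0.39 for M4 minus M1, with an adjusted p = 9.132e-08 (edgeR).

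Kcna1 had the largest cohort difference of all members. It had 31.7, 40.2, 43.1, 48.6 and 59.3 CPM in F4, against 109.5 to 166 CPM (median 130.4, n = 10) in F1, and the fitted log2 difference was -1.53. F2 had 43.9 to 102 CPM (median 76.3, n = 6), a difference of -0.81. M2 had 117 to 165 CPM (median 130.2, n = 6), against 43.9 to 141 CPM (median 99.6, n = 6) in M1, a difference of 0.50. Among females, the libraries of F2 and F4 lay wholly below those of F1, and those of F3 overlapped them, and the cohort test gave an adjusted p = 2.278e-06 (edgeR).

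Kcnc1 followed a like order. It had 179, 188, 191, 208 and 236 CPM in F4, against 243 to 323 CPM (median 292, n = 10) in F1, and the cohorts did not overlap. The fitted difference was -0.48, with an adjusted p = 1.851e-06 for the cohort test (edgeR). Kcnj10, shown after its values were seen, had 166.8, 167.1, 170.2, 179.8 and 189.7 CPM in F4, against 226 to 318 CPM (median 291, n = 10) in F1, again without overlap. Its fitted difference was -0.70, with an adjusted p = 1.175e-05 (edgeR).

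Over all members, 35 of 46 were lower in F4 than in F1 (median -0.17), 37 in F2 (median -0.14) and 26 in F3 (median -0.018). In males 36 were lower in M4 than in M1 (median -0.095), while 35 were higher in M2 (median 0.053) and 27 higher in M3 (median 0.025). Over all genes the share lower ran from 47.5% in F2 to 51.8% in M4. The differences of a sex share F1 or M1 as their base. Not every member followed. Kcnip4, which slows the inactivation of Kv4 channels, had 74.9 to 86.2 CPM (median 78.2, n = 5) in F4, against 46.9 to 71.2 CPM (median 59.1, n = 10) in F1, a difference of 0.39. Kcnh4 was lowest in F2, with 10.5 to 23.4 CPM (median 17.5, n = 6), against 23.6 to 31.4 CPM (median 26.0, n = 10) in F1, and its difference of -0.63 in F2 stood beside 0.16 in F4.

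**Figure D4:**
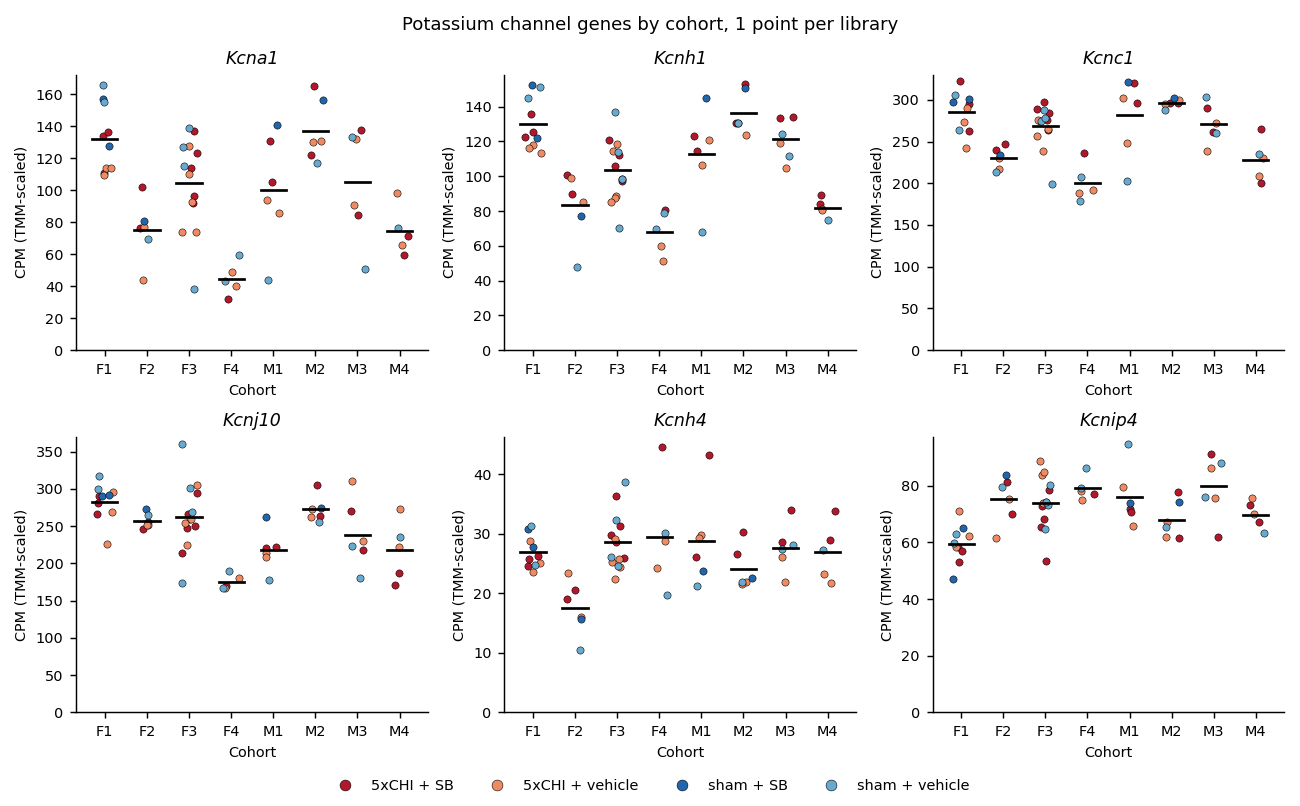
CPM of 6 members in each library by cohort, coloured by group, with the cohort mean as a black line. Kcna1, Kcnh1, Kcnc1 and Kcnj10 are low in all 5 libraries of F4 next to those of F1, and Kcnip4 has its lowest mean in F1.

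**Figure D5:**
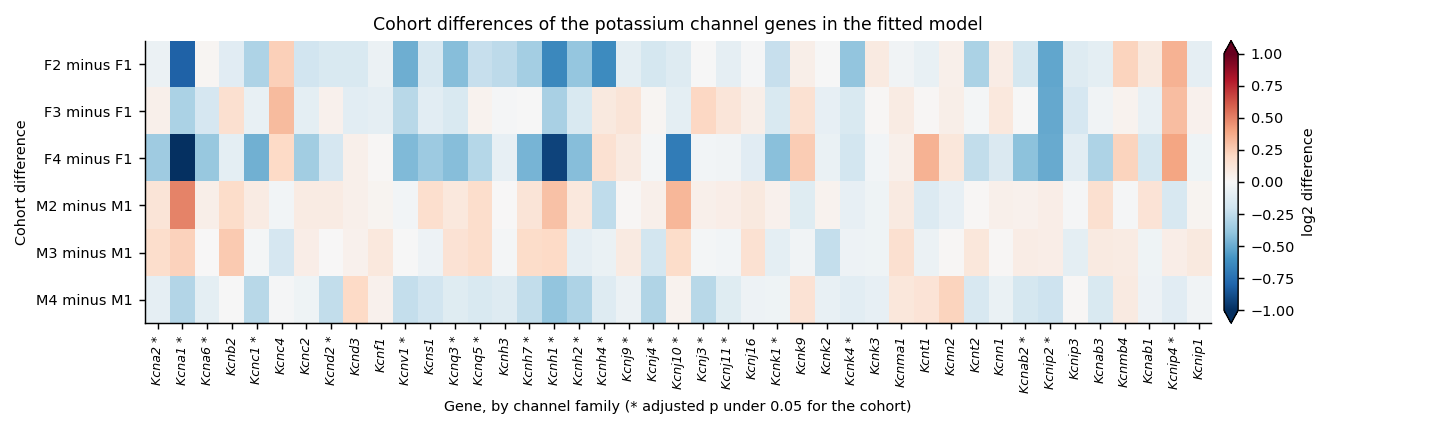
Fitted log2 difference of each cohort from the first cohort of its sex for 43 members, by family, with blue for lower and red for higher and an asterisk for the 22 of them with an adjusted p under 0.05. Kcna1 in F4 is lowest at -1.53, beyond the end of the colour scale at -1.

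Other measures moved with the cohorts. The slope of log2 CPM on transcript length was -0.12 to -0.023 over the 5 libraries of F4, against 0.011 to 0.077 over the 10 of F1. Parvalbumin interneuron markers, of which 8 of 10 were listed, summed to 734 to 817 CPM in F4, against 989 to 1219 CPM in F1, and 6 of the 8 passed the cohort test. The 10 include Gad1, Gad2 and Slc32a1, which other inhibitory neurons share, so the list is not specific to parvalbumin cells. Astrocyte markers summed to 5820 to 6333 CPM in F4, against 7192 to 8490 CPM in F1. Striatal markers summed to 293.5 to 393 CPM in F4, against 424 to 993 CPM in F1, and all 6 passed. Excitatory neuron markers summed to 4560 to 5835 CPM in F4, against 6006 to 6884 CPM in F1, and 5 of 8 passed. These marker counts stand beside a background of 44.6% of all genes that passed the same cohort test. Myelin markers passed in 13 of 13. They summed to 7457 to 21310 CPM (mean 11200) in F2 and 3102 to 9096 CPM (mean 7014) in F4, against 5692 to 9198 CPM (mean 7265) in F1. The 21310 CPM belonged to sham + vehicle female 1, which stood apart. In males the myelin sums were 6177 to 12890 CPM (mean 9643) in M4, against 6301 to 7376 CPM (mean 6898) in M1. The myelin ranges overlapped that of F1 or M1. For the parvalbumin interneuron, astrocyte, striatal and excitatory neuron markers, the F4 sums lay wholly below those of F1. With a length offset 27 members passed. The part of the marker levels in the members' differences was not tested.

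The count was 21 to 28 in the 58 fits without a single library, 26 without the libraries that stood apart, 36 with limma voom and 19 without cohort F4. The background of 44.6% belongs to the main fit only. The shares of all genes in these fits and with the length offset are not given here, so these counts have no background beside them.

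Members linked with cell types were set against those cells' markers over the 58 libraries, using what was left of log2 CPM after group and cohort. These 4 relations were adjusted by Benjamini-Hochberg, and the permutations of residuals do not count the 14 fitted coefficients. Genes of the same library share its depth and tissue piece. Of 1035 pairs of members, 154 had r above 0.5 and 50 below -0.5 on the same residuals. The p-values test against no relation at all, so they do not show a link particular to a cell type. Kcnj10 went with the 12 astrocyte markers at Pearson's r = 0.54 (raw p = 3e-05, adjusted p = 0.00012) and Spearman's rho = 0.48 (raw p = 0.00026, adjusted p = 0.00104). Without the 2 most extreme libraries r was 0.51. Within cohorts r was 0.38 in F1, 0.21 in F2, 0.61 in F3, -0.47 in M1, 0.46 in M2 and 0.45 in M3, so it was positive in 5 of 6. F4 and M4, with 5 libraries each, were too small.

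Kcna1 went with the 13 myelin markers at r = 0.46 (permutation raw p = 0.00034, adjusted p = 0.00068) and rho = 0.42 (raw p = 0.00118, adjusted p = 0.00236), and r was 0.39 without 2 libraries. It did not hold within every cohort, with r = -0.70 in F1, -0.093 in F2, 0.53 in F3, 0.20 in M1, 0.77 in M2 and 0.81 in M3. Another list, the 8 parvalbumin interneuron markers, is not specific to those cells, since it was drawn up with genes of all inhibitory neurons. A relation of Kcna1 with this list, added after the cohort values were seen, gave r = 0.81 and rho = 0.78 (p = 1e-05 for both, the smallest that 100000 permutations can give). It was 0.72 without 2 libraries and held within cohorts, at 0.71 in F1, 0.73 in F2, 0.91 in F3, 0.51 in M1, 0.71 in M2 and 0.85 in M3.

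Kcnc1 went with the same parvalbumin interneuron markers at r = 0.47 (permutation raw p = 6e-04, adjusted p = 8e-04) and rho = 0.36 (raw p = 0.00614, adjusted p = 0.00819). Its r was 0.32 without 2 libraries and -0.041 in F1, 0.21 in F2, 0.76 in F3, 0.55 in M1, 0.12 in M2 and 0.66 in M3, so it did not hold in every cohort. Kcnh4 and the 6 striatal markers had r = 0.27 (permutation raw p = 0.0431, adjusted p = 0.0431) and rho = 0.34 (raw p = 0.01, adjusted p = 0.01), with r = 0.32 without 2 libraries. That relation was 0.82 in F2 and 0.75 in M1 but 0.075 in F1, 0.044 in F3, -0.45 in M2 and 0.37 in M3.

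Members were also compared with each other on the same residuals, as a description over 58 libraries that share depth and tissue piece. Of 1035 pairs, 154 had r above 0.5 and 50 below -0.5, with a median of 0.070. Kcnh1 was most like Kcnq3, a Kv7 channel, at 0.79. Kcna1 was most like Kcnj10 at 0.74, and Kcnh4 was most like Kcnt1, a sodium-activated channel, at 0.63.

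Of 28 partner proteins, such as the scaffolds, escort and trafficking proteins of Kv channels, 25 were listed, and of 14 genes of potassium transport and buffering 13 were listed. In the 11 comparisons of groups 0 of them passed by edgeR. For SB in injured mice, 0 of the 25 partners had an unadjusted p under 0.05 and their median was 0.034. Among the 13 transport genes the chloride and potassium exporter Slc12a5 was at 0.11 ± 0.043 and the sodium pump subunit Atp1b3 at -0.11 ± 0.049, with unadjusted p of 0.0129 and 0.0278. By cohort 15 of 25 partners and 7 of 13 transport genes passed, beside the background of 44.6%. They were led by Slc12a5 (adjusted p = 3.381e-07), by Cntnap1, which separates Kv1 channels from the node of Ranvier (adjusted p = 6.882e-07), and by Lgi2 (adjusted p = 3.826e-06, all edgeR).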

How the data were processed

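Polyadenylated RNA of mouse somatosensory cortex was sequenced from directional libraries, per the labels' protocols. The authors deposited raw counts per gene. STAR, featureCounts, DESeq2 and the build GRCm39 (mm39) are named, per the submitters' processing notes. Tool versions, the annotation and any strand setting were not given in the sources used here, so overlapping genes could share counts. The library totals cover listed genes only. The labels do not say that each library is a separate animal, so p-values measure the spread between libraries. Counts were fitted in R 4.3.3 with edgeR 4.0.16 (TMM, robust quasi-likelihood test) on 8 groups of sex, injury and treatment plus cohort within sex, with 14 coefficients and 44 residual degrees of freedom. Comparisons are the mean of the sexes unless a sex is named, two-sided, adjusted by Benjamini-Hochberg over 9636 genes at 0.05. Levels are TMM-scaled CPM, per kb of GENCODE M21 exon where genes are compared. log2 CPM for relations used a prior count of 2. The lowest chi-square per degree of freedom between libraries of a group was 9.84, so none was a repeat. Alternatives used limma 3.58.1 and DESeq2 1.42.0. Named genes are Kcnh4 and Kcna1, the 4 smallest p per direction for SB in injured and injury in vehicle mice, 1 per direction elsewhere, 5 for the cohort, and the top level of each family. Members, lists and this rule were chosen with earlier results of these data known. Results of a few named genes are not reported here.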

Additional observations from a re-analysis of the deposited data

Results flagged for a closer look

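Among 29 named genes in 4 groups of 5 to 9 samples each, 4 of 116 sets had a library far from the rest by Dixon's test, which chance alone does in about 1 of 20. Kcnh4 stood at 43.2 CPM in 5xCHI + SB male 3, with the other 7 at 26.2 to 34.0 CPM. Kcnab2 stood at 499 CPM in 5xCHI + SB male 6, below the other 7 at 573 to 637 CPM. In sham + vehicle female 1, which also stood apart on a principal component, Kcnn1 was at 29.8 CPM, with the other 8 at 19.6 to 24.2 CPM, and Kcnk3 was at 52.4 CPM, with the other 8 at 27.4 to 36.9 CPM. Without 5xCHI + SB male 3 the log2 fold change of Kcnh4 for SB in injured males was 0.29, against 0.37 with it. Without sham + vehicle female 1 the log2 fold change of Kcnk3 for injury was -0.020, against -0.075 with it.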

How the results depend on the processing

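No member was called in any of the 11 comparisons of groups with RLE size factors, a mean count of at least 1000, no cohort term, no robust estimation, limma voom with quality weights, DESeq2, the replicate block, a transcript length offset, the 6 libraries that stood apart left out (added after seeing the data), or any of 58 single libraries left out. Of 327 alternative fold changes of named genes, 314 kept their direction and 0 passed. For injury in vehicle mice the direction turned with limma voom for Kcna1 (-0.14), Kcnma1 (-0.022), Kcnb2 (-0.028), Kcnk9 (-0.060) and Kcnk3 (0.021), and without the 6 libraries for Kcna1 (-0.11), Kcnb2 (-0.00196), Kcnc2 (-0.020), Kcnk9 (-0.017) and Kcnk3 (0.015). For SB in sham mice Kcnmb4 was at 0.047 with the length offset, 0.015 with limma voom and 0.016 without the 6 libraries. The cause was not tested. With 1 library left out, the injury values ran from -0.083 to 0.0080 for Kcnh4 and from -0.063 to 0.14 for Kcna1.

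For the cohort 25 members were called, 21 to 28 without a single library (fewest without 5xCHI + SB female 7), 36 with limma voom, 27 with the length offset and 16 with the replicate block. Over all genes 2254 of 9636 were called with the block, against 4302 in the main fit. Replicate numbers did not pair the samples: over 62 same-number pairs the median correlation of deviations was 0.00050 (range -0.60 to 0.59), the 16 pairs within a cohort had a median of 0.22, and 3 of 57 libraries correlated best with their own number. In the block fit 0 members were called between groups. The count at an unadjusted p under 0.05 moved with the setting: for SB in injured mice it was 3 to 17, for injured SB against sham vehicle 1 to 8, and for the sex difference of injury 0 with the block, where Kcnab3 was at 0.28, and 15 without the 6 libraries.

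The lowest counts were 510 for Kcnh4 and 929 for Kcna1, and the spread between libraries, a biological coefficient of variation of 0.123, sets the precision more than the counting error does. Comparisons with sham + SB rest on 5 libraries, 3 female and 2 male.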
